A study of Mus musculus with 12 samples.

Results

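The genes described here are 38 immediate early, feedback and heat shock genes of the mouse, taken by name from a count table of 54109 genes whose Ensembl identifiers were matched to GENCODE M21 symbols. Of them, 30 are immediate early or feedback genes and 8 are heat shock genes. They were measured by bulk RNA sequencing in mice with acute colitis caused by dextran sulfate sodium (DSS), a polymer that injures the colonic epithelium when it is drunk. All 12 libraries came from DSS-treated mice, so no untreated tissue enters any comparison. Material was either full colon tissue or LPMC (lamina propria mononuclear cells), a preparation of cells isolated from the gut wall. Each material came from wild-type (WT) mice and from Gpr15l-/- mice (KO), which lack the ligand of the T cell homing receptor Gpr15, with 3 libraries per group. The labels used here give no sex, age, strain or isolation steps. They also leave unsaid whether the 3 libraries of each group are 3 animals, so the spread behind the p-values is that of libraries and can be partly technical.

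Immediate early genes are switched on within minutes of a stimulus without new protein synthesis, because their promoters carry preformed sites for factors that growth factor, calcium and stress kinases activate. Most encode short-lived transcription factors or the inhibitors that end the same signal, such as phosphatases of MAP kinases and proteins that destroy unstable mRNA. Heat shock genes are induced by heat shock factor 1 when proteins misfold, and they encode chaperones. Both sets are known to respond to the dissociation of tissue into single cells as well as to injury.

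Levels are given as CPM, counts per 1e6 reads of the library, scaled between libraries by TMM factors. Total counts ran from 45.4 to 140.7 M (M for 1e6 reads) per library. The deleted gene, listed as 2610528A11Rik, had 15639 to 80362 counts in colon WT and 14 to 20 in colon KO, and 18619 to 32405 in LPMC WT against 4 to 10 in LPMC KO. The LPMC label was checked against cell type markers. All 6 T cell markers were higher in LPMC than in colon, but epithelial markers remained abundant there, with Epcam at 964 to 1409 CPM in LPMC and 1335 to 2433 CPM in colon. Of the 12 libraries, 4 stood apart from others of their tissue: colon WT replicate 1 held B cell markers at a mean log2 CPM of 7.03 against -1.67 to 1.52 in the other colon libraries, and colon KO replicate 2, LPMC WT replicate 3 and LPMC KO replicate 2 lay at the low end of the second principal component.

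The first comparison asked how these genes differed between LPMC and full colon, with both genotypes weighted equally. Transcription factors of the Fos, Jun and Nr4a families and the inducible Hsp70 genes were higher in LPMC, in both genotypes. Egr factors and the MAP kinase phosphatases other than Dusp6 were higher with both genotypes together, while Egr3 and Dusp2 missed the threshold in WT. Of the 38 genes, all passed the filter on low counts, 35 were higher in LPMC at an adjusted p under 0.05, 0 were lower and 3 were not called. Among all 20989 genes tested, 50.3% were called, 25.4% higher and 24.9% lower. The median log2 fold change of the 38 genes was 3.30, against 0.0076 for all genes tested. For 33 of the 38 genes every LPMC library lay above every colon library, which held for 14.5% of all genes. Together the 38 genes took 0.398 to 0.579% of counts in colon libraries and 2.37 to 3.33% in LPMC libraries. The list was drawn up with this difference already known, so its counts describe the genes and are no independent support for the direction. Tests are edgeR quasi-likelihood tests with Benjamini-Hochberg adjustment over all genes. Full colon and LPMC differ in cell types and in the isolation of cells at once, and these cannot be told apart. In bulk RNA, more cells of a type and more RNA per cell cannot be told apart either.

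**Figure D1:**
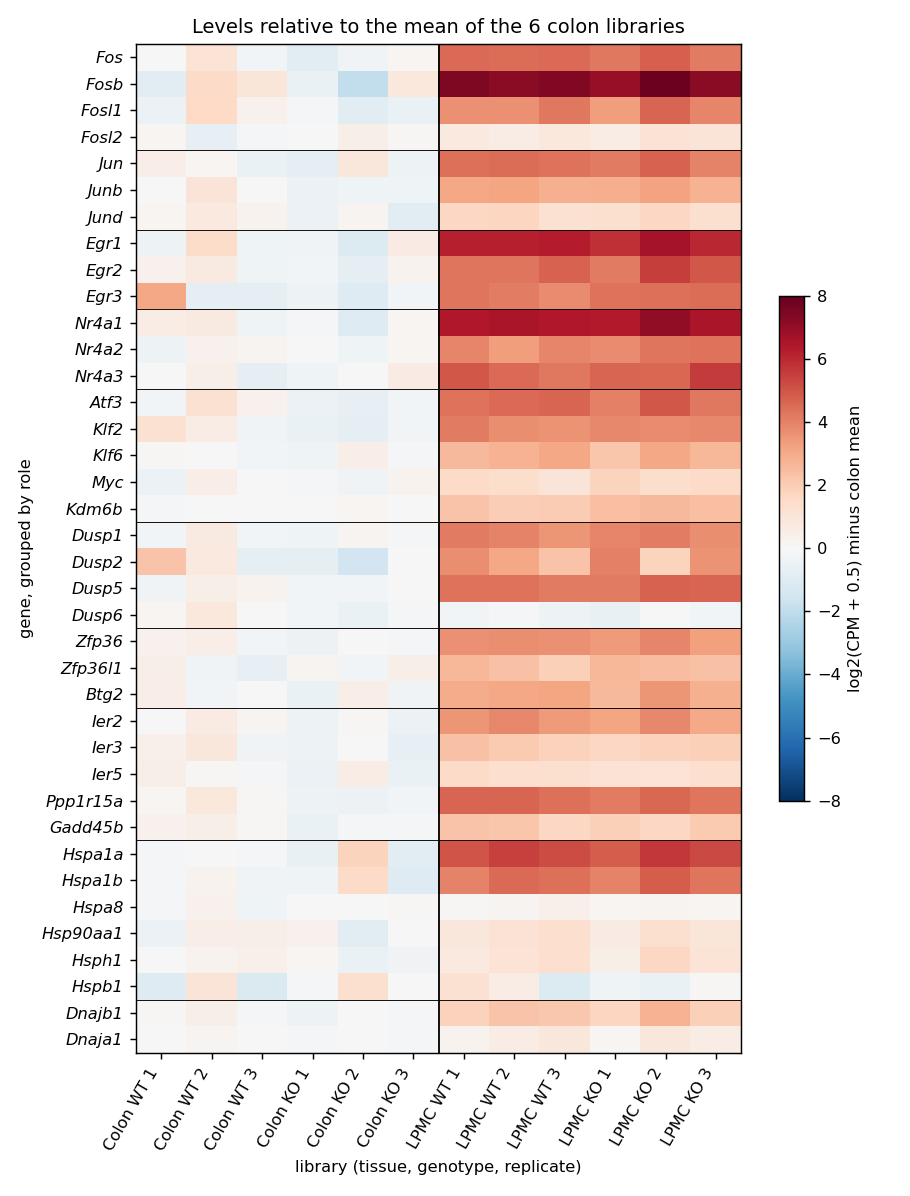
Level of each of the 38 genes (rows, grouped by role) in each of the 12 libraries (columns), as log2(CPM + 0.5) minus the mean of the 6 colon libraries, with red above and blue below that mean. The 6 LPMC columns are red for all rows but Dusp6 and Hspb1, only faintly for Hspa8, and Egr3 and Dusp2 are also red in colon WT replicate 1.

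The Fos family proteins pair with Jun family proteins to form the transcription factor AP-1. Fos had 139.8, 302 and 121 CPM in the colon WT libraries and 78.6, 115 and 153 in colon KO. In LPMC it had 3229, 3111 and 3277 CPM in WT and 2634, 3838 and 2508 in KO. Every LPMC library was above every colon library, and the log2 fold change was 4.40 ± 0.28 (SE, n = 6 libraries per tissue, adjusted p = 1.25e-06). Fosb, a close relative of Fos, had 1.99 to 28.1 CPM in colon and 1235 to 2241 CPM in LPMC. Its log2 fold change of 7.09 ± 0.64 (adjusted p = 1.74e-05) was the largest of the 38. Fosl1 (Fra-1) differed by 3.98 ± 0.40, while Fosl2 (Fra-2), which was already at 146 to 324 CPM in colon, differed by 0.81 ± 0.16 (adjusted p = 0.00148). Of the Fosl1 exon bases, 57.2% overlap Ccdc85b on the opposite strand, and reads of these neighbours may be mixed if counting ignored strand.

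Of the Jun family, Jun was at 70.7 to 221 CPM in colon and 1839 to 3021 CPM in LPMC, a log2 difference of 4.24 ± 0.32 (adjusted p = 4.27e-06). Junb, which competes with Jun for partners, differed by 2.97 ± 0.18. Jund, the member expressed in resting cells, differed by 1.44 ± 0.20. For each of the 7 Fos and Jun genes, the lowest LPMC library was above the highest colon library.

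Zinc finger factors of the Egr family and orphan nuclear receptors of the Nr4a family were low in colon and gave some of the largest differences. Egr1, a target of serum response factor, had 19.7, 72.8 and 20.6 CPM in colon WT and 21.4, 11.96 and 41.3 in colon KO. In LPMC it had 2001, 2017 and 2086 CPM in WT and 1499, 2644 and 1733 in KO. The groups did not overlap, and the log2 fold change was 6.03 ± 0.47 (adjusted p = 6.18e-06). Egr2 was at 0.424 to 2.14 CPM in colon and at 28.1 to 73.6 CPM in LPMC, a log2 difference of 5.17 ± 0.39.

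Egr3 had 12.1 CPM in colon WT replicate 1 and 0.228 to 0.777 CPM in the other 5 colon libraries, against 20.3 to 32.8 CPM in LPMC. The same colon library is the one that holds B cell markers, whose part in the Egr3 level was not tested. Over all libraries the Egr3 difference was 4.16 ± 0.81 on the log2 scale (adjusted p = 0.00184), and it was 5.86 without colon WT replicate 1.

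Nr4a1 (Nur77) had 15.01, 15.8 and 7.52 CPM in colon WT and 8.67, 4.41 and 10.9 in colon KO. In LPMC it had 863, 934 and 858 CPM in WT and 806, 1366 and 917 in KO. Every LPMC library was above every colon library, and the log2 difference was 6.56 ± 0.31 (adjusted p = 1.87e-07). Nr4a2 (Nurr1) and Nr4a3 (Nor1) were at 0.860 to 3.13 CPM in colon and 28.6 to 110.2 CPM in LPMC, with log2 differences of 4.19 ± 0.22 and 5.06 ± 0.36.

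Among the other regulators of transcription, Atf3, a stress-induced factor of the ATF/CREB family, was at 42.8 to 159 CPM in colon and 1132 to 2158 CPM in LPMC. Its log2 difference was 4.43 ± 0.28 (adjusted p = 1.2e-06). Klf2, which keeps lymphocytes and endothelium quiescent, differed by 3.81 ± 0.24, and Klf6, an early injury-response factor, by 2.74 ± 0.21. Myc, the growth regulator, was at 23.3 to 46.6 CPM in colon and 66.7 to 112.6 CPM in LPMC, a difference of 1.44 ± 0.18. Kdm6b, a demethylase of histone H3 lysine 27, had a difference of 2.29 ± 0.09, the smallest standard error of the 38, with 60.9 to 72.6 CPM in colon and 261 to 388 CPM in LPMC. It ranked 7 by p-value among all genes tested.

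The MAP kinase phosphatases of the Dusp family switch off the kinases that induce these genes. Dusp5, a nuclear phosphatase of ERK, had 8.52, 14.4 and 13.0 CPM in colon WT and 8.91, 9.07 and 10.6 in colon KO. In LPMC it had 219, 225 and 200.3 CPM in WT and 195, 288 and 274 in KO. The groups stood far apart, with a log2 difference of 4.45 ± 0.16 (adjusted p = 7.53e-08), which ranked 3 by p-value among all genes tested. Dusp1, which prefers p38 and JNK, differed by 3.87 ± 0.22. Dusp2, a phosphatase of activated lymphocytes and myeloid cells, had 20.5 CPM in colon WT replicate 1 and 1.01 to 6.97 CPM in the other colon libraries, against 14.9 to 72.4 CPM in LPMC. The tissues overlapped for Dusp2, and its log2 difference was 3.12 ± 0.62 (adjusted p = 0.00199). Dusp6, a cytoplasmic phosphatase of ERK, did not share the difference. It had 72.5 to 186.5 CPM in colon and 71.4 to 107.5 CPM in LPMC, a log2 difference of -0.28 ± 0.16 (adjusted p = 0.164).

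Genes that act on mRNA stability or on translation were higher too. Zfp36 (tristetraprolin), which binds AU-rich elements and triggers mRNA decay, was at 138 to 276 CPM in colon and 1884 to 2877 CPM in LPMC, a log2 difference of 3.60 ± 0.17 (adjusted p = 1.87e-07). Its paralog Zfp36l1 differed by 2.39 ± 0.22, and Btg2, an antiproliferative partner of the deadenylase complex, by 3.01 ± 0.24. Ppp1r15a (Gadd34), which directs protein phosphatase 1 to the initiation factor eIF2alpha, had 33.4, 54.1 and 32.3 CPM in colon WT and 22.6, 21.3 and 25.6 in colon KO. In LPMC it had 763, 771 and 632 CPM in WT and 545, 738 and 596 in KO. The groups did not overlap, and the log2 difference was 4.47 ± 0.17 (adjusted p = 7.53e-08). The 3 Ier genes differed by 3.48 ± 0.20 (Ier2), 1.93 ± 0.20 (Ier3) and 1.24 ± 0.19 (Ier5), and the stress gene Gadd45b by 1.99 ± 0.14.

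The heat shock genes ranged widely. Of the 8, 6 were higher in LPMC and 2 were not called, where 25.4% of all genes tested were called higher. Their median log2 fold change was 1.05, against 3.71 for the 30 immediate early genes, of which 29 were higher. The inducible Hsp70 genes Hspa1a and Hspa1b had the largest differences of the 8. Hspa1a had 4.61, 5.25 and 4.46 CPM in colon WT and 3.21, 19.0 and 2.48 in colon KO. In LPMC it had 185, 243 and 211 CPM in WT and 164, 279 and 214 in KO. The lowest LPMC library was well above colon KO replicate 2, the highest colon library, and the log2 difference was 5.11 ± 0.51 (adjusted p = 3.22e-05), or 5.85 without colon KO replicate 2. Hspa1b differed by 4.17 ± 0.44. These paralogs share 58.8% of the 50-base words of Hspa1a and 62.3% of those of Hspa1b, so reads may have been split or lost between them. Their sum, which a split does not change, was 13.8 to 89.8 CPM in colon and 546 to 983 CPM in LPMC, without overlap.

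Dnajb1, the Hsp40 co-chaperone that works with inducible Hsp70, was at 84.8 to 157 CPM in colon and 369.6 to 759 CPM in LPMC, a log2 difference of 2.15 ± 0.20 (adjusted p = 1.34e-05). Hsph1 (Hsp110), a nucleotide exchange factor of Hsp70, differed by 1.12 ± 0.20, and Hsp90aa1, the inducible Hsp90, by 0.98 ± 0.23. Dnaja1, another Hsp40, differed by 0.60 ± 0.14, with overlap between tissues. Hspa8, the constitutive Hsc70, was the most abundant heat shock gene in both tissues and had 1404 to 2274 CPM in colon and 1862 to 2323 CPM in LPMC. Its log2 difference of 0.19 ± 0.13 was not called (adjusted p = 0.237). Hspb1 (Hsp25), a small heat shock protein, ranged from 15.2 to 83.7 CPM in colon and from 15.6 to 79.6 CPM in LPMC, a difference of -0.11 ± 0.49 (adjusted p = 0.865).

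Promoters were read because these genes are textbook targets of a few DNA-bound factors, and because many moved together. RefSeq windows of GRCm38.p6 ran from 250 bases before to 50 bases after the start of transcription. They were at hand for 30 of the 38 genes, 24 of them immediate early and 6 heat shock. Fosl1, Egr1, Egr3, Myc, Kdm6b, Ier2, Hspa8 and Hsp90aa1 had no window and were not searched. Stretches upstream of the first exon are shown for 5 genes, 5′ to 3′ on the strand of the gene, with the motif in capitals. Dusp5 and Ppp1r15a had the lowest p-values of the 38 genes, Dusp1 carries the same motif as Ppp1r15a, and the Hspa1a and Hspa1b stretches belong to the paralogs above. Capitals mark a pair of serum response elements (CArG boxes) in Dusp5 (chr19:53528995-53529108, plus strand), the cAMP response element in Ppp1r15a (chr7:45526269-45526418, minus strand) and Dusp1 (chr17:26508520-26508622, minus strand), and a 2-unit heat shock element in Hspa1a (chr17:34972157-34972306, minus strand) and Hspa1b (chr17:34959239-34959388, minus strand).
Dusp5: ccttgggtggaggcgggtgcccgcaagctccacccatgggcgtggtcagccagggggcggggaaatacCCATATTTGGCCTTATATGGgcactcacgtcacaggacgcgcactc
Ppp1r15a: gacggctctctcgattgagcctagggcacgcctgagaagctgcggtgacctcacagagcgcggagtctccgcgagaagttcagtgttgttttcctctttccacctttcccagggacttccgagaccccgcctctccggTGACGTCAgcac
Dusp1: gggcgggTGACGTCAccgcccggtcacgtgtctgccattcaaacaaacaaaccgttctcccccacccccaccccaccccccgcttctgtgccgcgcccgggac
Hspa1a: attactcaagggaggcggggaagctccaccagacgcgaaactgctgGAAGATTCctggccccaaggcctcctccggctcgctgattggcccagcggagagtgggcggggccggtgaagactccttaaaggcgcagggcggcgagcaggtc
Hspa1b: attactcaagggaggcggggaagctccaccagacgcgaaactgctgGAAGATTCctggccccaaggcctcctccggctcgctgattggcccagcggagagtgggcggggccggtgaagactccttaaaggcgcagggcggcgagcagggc

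The CArG boxes of Dusp5 lie end to end at bases -82 to -63 from the start, and the cAMP response element of Ppp1r15a lies at -12 to -5. The Hspa1a and Hspa1b stretches are identical at 149 of 150 positions and hold the heat shock element at the same distance, -104 to -97. Motifs were searched on both strands as letters only. The 2-unit heat shock element (GAANNTTC or TTCNNGAA) was in the windows of 5 of 6 heat shock genes and 3 of 24 immediate early genes, and in those of 16.973% of all 27025 genes with a window. The 3-unit form (GAANNTTCNNGAA or TTCNNGAANNTTC), which contains the 2-unit form, was found in Hsph1 alone among the 30 genes and in 0.662% of all genes. The cAMP response element (TGACGTCA) was in 3 of 24 immediate early genes, Dusp1, Btg2 and Ppp1r15a, and in 2.031% of all genes. The CArG box was in 3 of 24, Egr2, Dusp5 and Zfp36, and in 1.806% of all genes. The AP-1 site (TGAGTCA or TGACTCA) was in 0 of 24 and in 5.946% of all genes. A match describes letters in a short window and is no evidence that a factor binds there. Sites outside the windows were not searched.

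Other genes of the same pathways were taken from 4 lists. Over all genes tested, 25.4% were called higher in LPMC and 24.9% lower. Of 28 other immediate early and growth factor induced genes, 25 were higher in LPMC and 0 lower, with a median log2 fold change of 2.24. Among these, Ccn1 (Cyr61), a matrix protein and target of serum response factor, had 5.90 to 18.8 CPM in colon and 592 to 1183 CPM in LPMC, a log2 difference of 6.08. Trib1, a pseudokinase, differed by 2.91 and the kinase Plk2 by 3.66. Egr4 was at 0 to 0.0326 CPM in colon and 8.47 to 24.5 CPM in LPMC, too low in colon for a fold change. Of 22 other heat shock factor targets and chaperones, 8 were higher and 0 lower, with a median of -0.04. They included the Hsp40 genes Dnajb4 (2.46) and Dnaja4 (1.82), with smaller differences for the Hsp70-interacting protein St13 (0.47) and for ubiquitin Ubb (0.52).

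Of 18 genes of the integrated stress and unfolded protein responses, 14 were higher and 0 lower, with a median log2 fold change of 0.71. Hspa5 (BiP), the Hsp70 of the endoplasmic reticulum, differed by 1.57, its degradation partner Herpud1 by 1.86, the co-chaperone Dnajb9 by 1.58 and the transcription factor Ddit3 (CHOP) by 2.74. Of 17 upstream kinases and transcription factors, 6 were higher and 5 lower, with a median of 0.07. These counts are near the shares over all genes, 25.4% higher and 24.9% lower, and are not read as a result about the list. The ternary complex factor Elk4 was lower in LPMC by -0.61 and the kinase Map2k1 (MEK1) by -0.75, while the serum response factor partners Mrtfa and Mrtfb were higher by 0.64 and 0.86.

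Levels of different genes were compared per length, as CPM per kilobase of exon (RPKM, mean of 6 libraries). In LPMC the order was led by Fos at 1318 RPKM, followed by Jun at 752, Atf3 at 715, Junb at 701, Zfp36 at 681 and Ier2 at 642. The ranges of Jun to Ier2 over libraries overlapped, so the order among these 5 is not firm, and Fos at 1066 to 1632 RPKM lay above each of them. In colon the order was led by Hspa8 at 419 RPKM, followed by Junb at 93.4, Hsp90aa1 at 90.8 and Fos at 64.4. The ranges of the last 3 overlapped. Hspa8 held rank 1 of the 38 in colon and rank 7 in LPMC, where its level was 477 RPKM.

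The difference between LPMC and colon was seen in each genotype on its own. In WT, 31 of the 38 genes were higher in LPMC and 1, Dusp6, was lower at -0.62 ± 0.22 (adjusted p = 0.0493), where 17.8% of all genes were called higher and 17.5% lower. The Dusp6 call was lost in most alternatives, such as without colon WT replicate 2 (log2 difference -0.33, adjusted p = 0.209). In KO, 35 were higher and 0 lower, where 14.5% of all genes were called higher and 13.6% lower. The median log2 fold change of the 38 genes was 2.89 in WT and 3.72 in KO. In WT, Egr3 at 2.50 ± 1.06 (adjusted p = 0.0902) and Dusp2 at 1.97 ± 0.83 (adjusted p = 0.0886) missed the threshold, and without colon WT replicate 1 they were called at 5.90 and 3.11. In KO they were called at 5.82 ± 1.24 and 4.27 ± 0.92. Without colon KO replicate 2, the KO log2 differences of Hspa1a and Hspa1b moved from 4.74 to 6.25 and from 3.97 to 5.12.

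**Figure D2:**
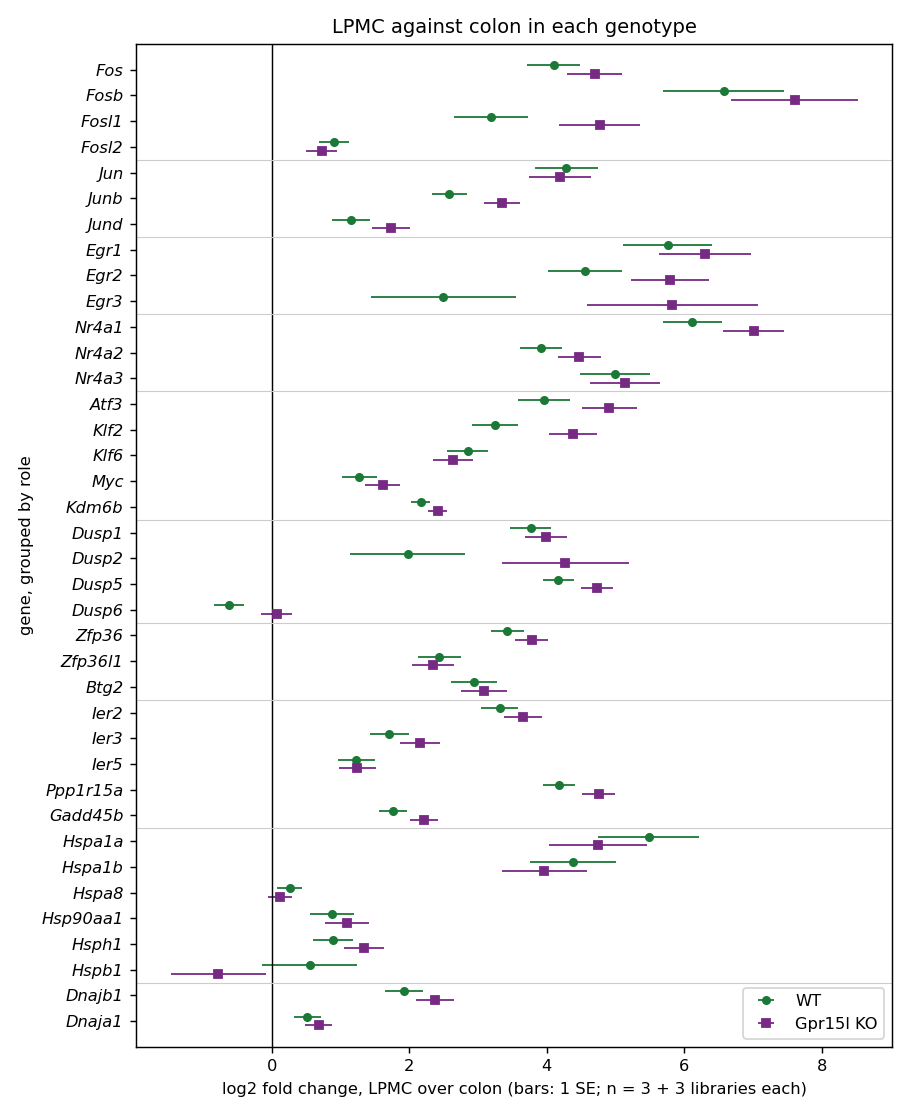
Log2 fold change of LPMC over colon for each of the 38 genes (rows, grouped by role), in WT (circles) and Gpr15l KO (squares), with bars of 1 standard error and 3 libraries per group. Most points of both genotypes lie right of 0, Hspa8 lies near it, and Dusp6 and Hspb1 each have a point on either side.

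The next comparison asked whether loss of Gpr15l changed these genes within a tissue. In colon, 25 of the 30 immediate early genes had a negative log2 fold change of KO over WT, but none of the 38 genes passed the test. By edgeR's quasi-likelihood test on the 6 colon libraries, 0 of 38 genes were called, where 0.00518% of all 19303 genes tested were, and DESeq2 also called 0. At an unadjusted p under 0.05 the count was 8 of 38, all with a negative log2 fold change, against 7.79% of all genes in either direction. Of the 38 log2 fold changes, 29 were negative and 9 positive, where 50.5% of all genes were positive. The median was -0.40, or -0.62 for the 30 immediate early genes and -0.07 for the 8 heat shock genes, against 0.0062 for all genes. Without colon WT replicate 2 the median of the 38 genes was -0.22. The 38 genes were read in the same 6 libraries, so their signs and unadjusted calls are not independent. Pairs of immediate early genes correlated at a median of 0.35 over the colon libraries. These counts are therefore not read as a decrease of the set.

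Ppp1r15a, with the lowest unadjusted p of the 38, was at 32.3 to 54.1 CPM in colon WT and 21.3 to 25.6 CPM in colon KO, as listed above. The genotypes did not overlap, and the log2 difference was -0.80 ± 0.24 (SE, n = 3 libraries per genotype, adjusted p = 0.632). Gadd45b had 34.9, 38.1 and 29.3 CPM in WT and 18.5, 24.1 and 24.3 in KO, a difference of -0.63 ± 0.20. Junb had 209.8, 405 and 209.9 CPM in WT and 147, 159 and 158 in KO, a difference of -0.84 ± 0.29. Dusp6 and Dnaja1 were the other members whose colon KO libraries all lay below the WT libraries, at -0.69 ± 0.25 and -0.21 ± 0.15. These 5 of 38 genes compare with 6.53% of all genes whose KO libraries lay below without overlap, and 0 of 38 lay above, against 7.79% of all genes.

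Klf2, at -1.17 ± 0.40, Atf3, at -1.02 ± 0.36, Fosl1, at -1.38 ± 0.58, and Dusp2, at -2.05 ± 0.86, also had an unadjusted p under 0.05, with the genotypes overlapping and the same adjusted p of 0.632. Fosl1 moved to -0.55 without colon WT replicate 2 and Dusp2 to -0.91 without colon WT replicate 1, which is the library with B cell markers. The 5 leukocyte markers had a median log2 fold change of -1.51 in colon, with 0 called. Their mean log2 CPM was 6.79, 4.82 and 3.66 in WT and 4.37, 2.08 and 4.51 in KO, so the genotypes overlapped. The highest value was that of WT replicate 1 and the lowest that of KO replicate 2. The part of these markers in the differences above was not tested. Heat shock genes differed little by median, with 4 positive and 4 negative. Hspa1a was at 0.78 ± 0.76 with a nominal 95% interval of -0.71 to 2.26, which is narrower than the test implies. For Zfp36 in colon such an interval was -0.958 to -0.027, without 0, yet the quasi-likelihood test gave an unadjusted p of 0.0756. With 3 libraries per genotype, the interval of Hspa1a thus spans sizeable differences in either direction.

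In LPMC, too, none of the 38 genes passed the test. By the same test, 0 of 38 genes were called, where 0.0103% of all 19426 genes tested were, and DESeq2 also called 0. At an unadjusted p under 0.05 the count was 2 of 38, against 2.64% of all genes. These were Kdm6b, with 325, 261 and 262 CPM in WT and 342, 388 and 340.3 in KO, and Egr3, with 28.6, 24.5 and 20.3 CPM in WT and 29.8, 31.6 and 32.8 in KO. In both genes every KO library was above every WT library, as in 3.66% of all genes, and for 0 of 38 genes every KO library was below, as in 3.75%. The log2 differences were 0.33 ± 0.12 and 0.36 ± 0.15, and the adjusted p was 0.998 for both. Of the 38 log2 fold changes, 18 were positive and 20 negative, where 49.2% of all genes were positive, with a median of -0.01. Fos was at -0.11, with a nominal 95% interval of -0.44 to 0.23, and Hspa1a at 0.03, with -0.38 to 0.44. These intervals overstate the precision reached. That of Ier3 in LPMC was -0.614 to -0.005, yet its unadjusted p by the same test was 0.0891.

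**Figure D3:**
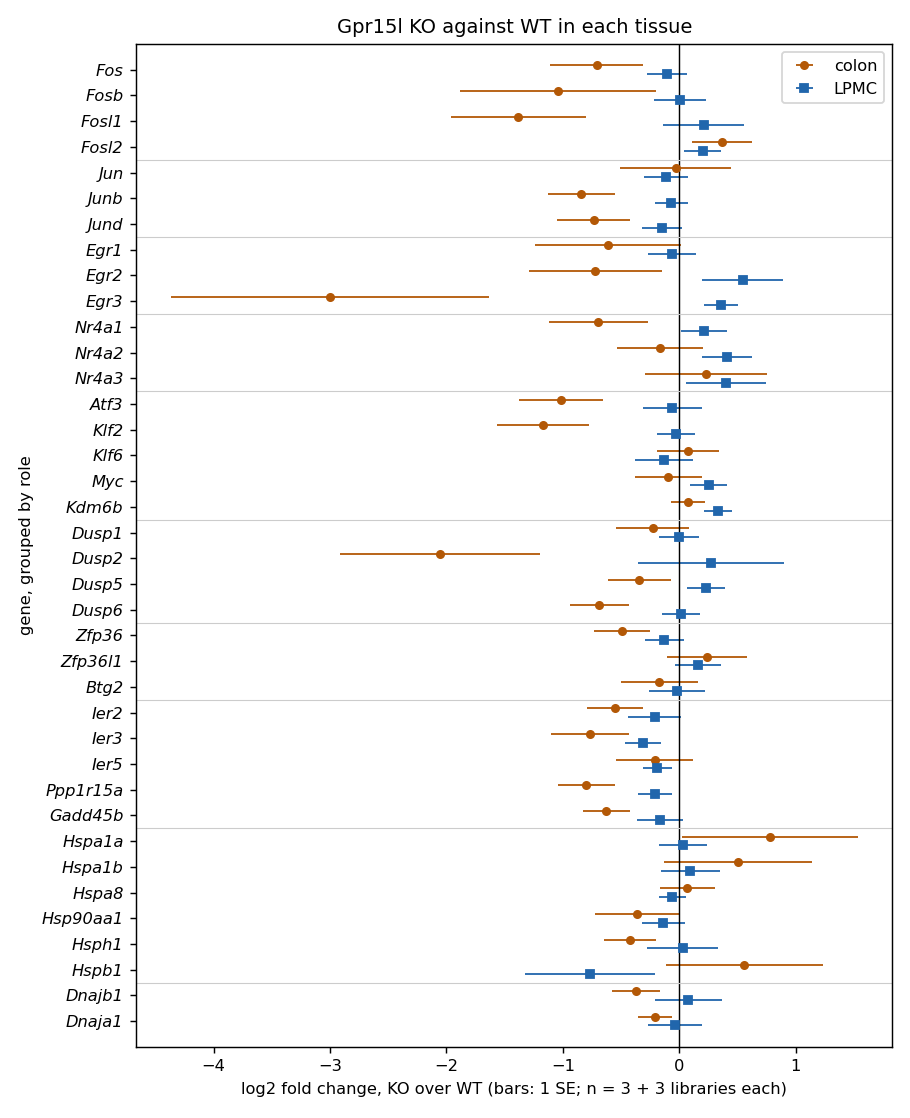
Log2 fold change of Gpr15l KO over WT for each of the 38 genes (rows, grouped by role) in colon (circles) and LPMC (squares), with bars of 1 standard error and 3 libraries per group. Colon points lie mostly left of 0 and have wider bars for all genes but Hsph1, Dnajb1 and Dnaja1, and LPMC points lie on both sides of 0, with Kdm6b at 0.33 and Egr3 at 0.36.

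Whether the genotype difference itself differed between tissues was tested as an interaction over all 12 libraries. Again 0 of 38 genes were called, as were 0 of all 20989 genes tested (0%). DESeq2 called 0 of the 38 as well. At an unadjusted p under 0.05 there were 5 of 38, against 4.69% of all genes. These were Klf2 at 1.13 ± 0.44, Egr3 at 3.33 ± 1.47, Junb at 0.77 ± 0.34, Fosl1 at 1.58 ± 0.71 and Dusp6 at 0.69 ± 0.31. Each had an adjusted p of 0.902. The median over the 38 genes was 0.45, with 30 positive and 8 negative, where 48.8% of all genes were positive. As in colon, these signs come from shared libraries and are not independent. A positive value means a higher KO to WT ratio in LPMC than in colon. The Egr3 value turned to -0.08 without colon WT replicate 1, and the median fell to 0.22 without colon WT replicate 2.

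Within a tissue, single libraries held many of the extremes. In colon, WT replicate 2 had the highest level of the 6 libraries for 23 of 38 genes, 19 of them immediate early, and KO replicate 2 had the lowest for 13. KO replicate 2 also had the highest colon levels of Hspa1a and Hspa1b, at 19.0 and 70.8 CPM. In LPMC, KO replicate 2 was highest for 22 of 38 genes and KO replicate 1 lowest for 18. The ratio of the highest to the lowest library had a median of 2.57 over the 38 genes in colon and 1.69 in LPMC, and 32 genes varied less among LPMC libraries than among colon libraries. For the counts in this paragraph the shares over all genes are not given, so none is read as particular to these genes.

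Markers of cell types moved with the tissue comparison as well, where 25.4% of all genes tested were called higher in LPMC and 24.9% lower. Leukocyte markers were higher in LPMC for 3 of 5 genes with a summed level of 267 to 1015 CPM, against 26.1 to 642 CPM in colon, and T cell markers for 6 of 6, at 34.6 to 140.6 against 3.57 to 34.5 CPM. Fibroblast markers were higher for 6 of 6, at 830.2 to 5089 against 214 to 999.6 CPM, endothelial markers for 3 of 5, at 117 to 298 against 25.7 to 81.5 CPM, and red blood cell markers for 5 of 5, at 351 to 1782 against 4.44 to 41.5 CPM. Neutrophil markers were higher for 1 of 6, at 54.7 to 568 against 13.1 to 205 CPM, monocyte and macrophage markers were higher for 1 and lower for 1 of 7, at 246 to 727 against 144 to 518 CPM, and 0 of 4 B cell markers were called, at 32.8 to 191 against 1.42 to 567 CPM. Epithelial markers were lower for 5 of 7, yet summed to 7016 to 9919.6 CPM in LPMC against 11643 to 22392 CPM in colon. Enteric neuron and glia markers were lower for 6 of 6, at 2.19 to 6.15 against 19.1 to 40.5 CPM, with S100b at 0 in some LPMC libraries, and 0 of 6 smooth muscle markers were called, at 136 to 1182 against 225 to 1952 CPM. The part of these cell types in the levels of the 38 genes was not tested. Within LPMC, the mean log2 CPM ranged over libraries from 8.18 to 8.54 for the 30 immediate early genes, from 9.48 to 10.06 for epithelial, from 6.53 to 9.05 for fibroblast and from 5.44 to 7.33 for leukocyte markers. The lists differ in their number of genes, so the widths of these ranges cannot be compared.

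**Figure D4:**
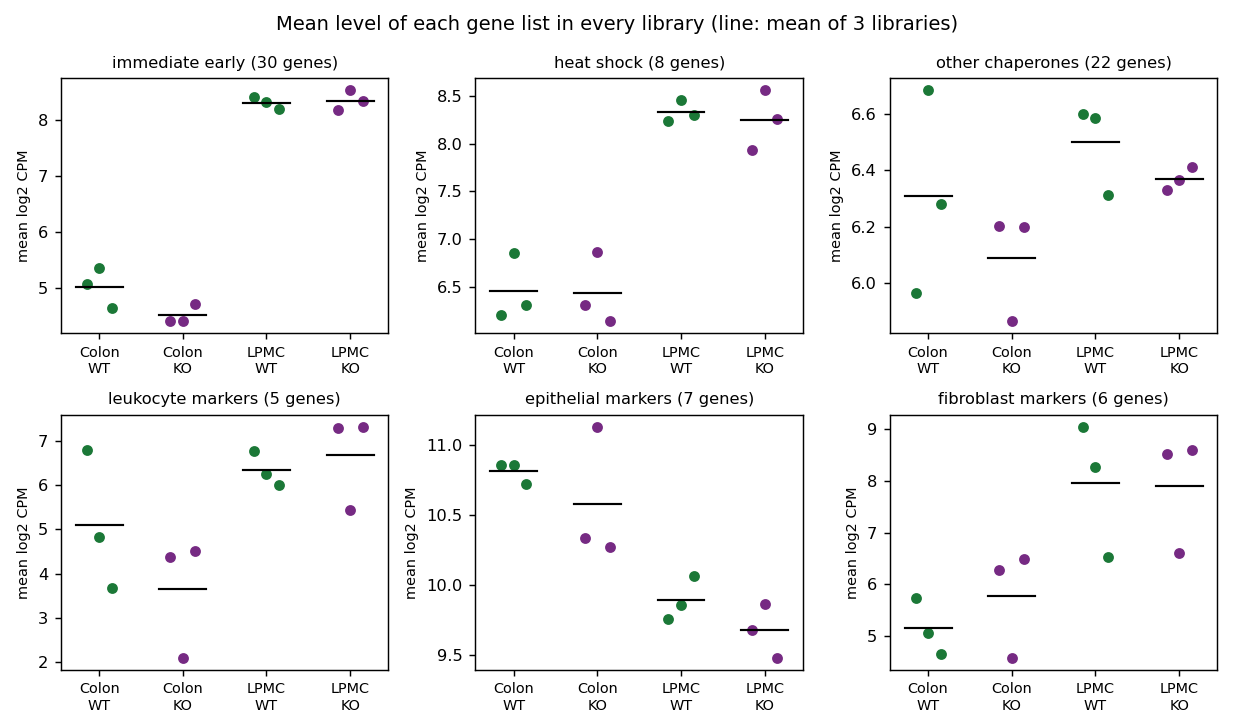
Mean log2 CPM of 6 gene lists in every library (points), by group of 3 libraries (line: group mean), for the 30 immediate early genes, the 8 heat shock genes, 22 other chaperones and leukocyte, epithelial and fibroblast markers. Colon and LPMC libraries do not overlap for immediate early genes, at 4.41 to 5.36 and 8.18 to 8.54, for fibroblast markers, at 4.57 to 6.48 and 6.53 to 9.05, or for epithelial markers, at 10.27 to 11.13 and 9.48 to 10.06. Heat shock genes do not overlap either, while leukocyte markers and other chaperones do.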

How the data were processed

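RNA was measured in 12 mouse libraries in 4 groups of 3. Per the labels' protocols, stranded poly(A) libraries were sequenced on an Illumina instrument, and STAR and the build GRCm38 (mm10) are named, per the submitters' processing notes. Not given in the sources used here are the STAR version, counting tool, annotation and strand setting. The authors deposited raw read counts per Ensembl gene, and 66.6 to 76.6% of low counts were even, as when both mates of a pair are counted, so counts carry less precision than their size implies.

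Counts of 54109 genes, 54042 of them in GENCODE M21, were tested as deposited in R 4.3.3 with edgeR 4.0.16 (TMM, filterByExpr with a minimum count of 10, robust quasi-likelihood F-test, Benjamini-Hochberg over all genes, called under 0.05). LPMC against colon and the interaction used all 12 libraries, and KO against WT the 6 of a tissue. Standard errors are the log2 fold change over the square root of F. Intervals were built from them with the normal distribution, which makes them too narrow for fits of 6 libraries. RPKM divides TMM-scaled CPM by exon length. The tests were also run on counts simulated with the spread fitted to these same libraries. Such counts hold no outlying library, doubled mates or pairing, so they cannot show how the tests handle these. The 38 genes, the 4 pathway lists and the marker lists were chosen with earlier results of these data known. From each pathway list the text names up to 4 called genes of lowest p. Alternatives were other scalings, no filter, a replicate block, DESeq2 1.42.0, each genotype alone and leaving out libraries. The labels do not say what replicate numbers share, and same-numbered libraries did not all deviate together (not every correlation over 0.1), so the numbers were not used as pairs.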

Additional observations from a re-analysis of the deposited data

How the results depend on the processing

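The count of 35 genes higher in LPMC stayed between 32 and 36 in every alternative run. Its median log2 fold change of 3.30 was 2.88 with the 6 WT libraries alone and 3.72 with the 6 KO libraries alone, and 3.22 to 3.52 when single libraries were left out. In WT the median ran from 2.81 to 3.14 when single libraries were left out and was 3.17 without the 4 libraries that stood apart, an alternative chosen after seeing the data, and in KO the leave-one-out range was 3.47 to 3.85. The WT count of 1 gene called lower (Dusp6) was 0 with library totals without scaling factors, with no filter on low counts, with either replicate block, with the 6 WT libraries alone and without the 4 libraries, and ran from 0 to 1 when single libraries were left out. Hspb1, not called, turned positive at 0.12 with the block by number, at 0.54 with the 6 WT libraries alone, at 0.28 without the 4 libraries, and ran from -0.37 to 0.44 when single libraries were left out, positive without colon WT replicate 2, colon KO replicate 2 or LPMC WT replicate 3. Dusp6, not called over all libraries, was at 0.067 with the 6 KO libraries alone. In KO it ran from -0.078 to 0.21 when single libraries were left out, negative without colon KO or LPMC KO replicate 2, and was at -0.20 without the 4 libraries. With the 6 WT libraries alone, Egr3 (2.47, adjusted p = 0.189), Dusp2 (1.95, adjusted p = 0.112) and Dnaja1 (0.50, adjusted p = 0.0638) were no longer called. Dnaja1 was also not called with the 6 KO libraries alone. Fits of 6 libraries have fewer samples, and the cause of the other shifts was not tested.

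The KO to WT comparisons and the interaction called 0 of the 38 genes in every alternative run. The interaction median ran from 0.22 to 0.53 when single libraries were left out, and Egr3, at 3.33 over all libraries, ran from -0.081 without colon WT replicate 1 to 3.87 and was at -0.52 without the 4 libraries. The KO to WT median ran from -0.57 to -0.22 in colon and from -0.18 to 0.11 in LPMC when single libraries were left out. Deviations of same-numbered WT and KO libraries correlated at -0.23 to 0.24. Those of same-numbered colon and LPMC libraries of a genotype were all positive, at 0.081 to 0.16 in WT and 0.064 to 0.30 in KO, and 3 of 3 WT and 2 of 3 KO libraries matched their own number best, a hint from the data that colon and LPMC libraries may be paired. Not every pair exceeded 0.1, so the numbers were not taken as pairs. The replicate block by number gave 35 genes higher in LPMC and 0 called between genotypes. A replicate block within genotype, chosen after seeing the data, also gave 35, and in WT a median of 3.15 with Egr3 and Dusp2 called. Genes of a few CPM in colon rest on fewer counts there than in LPMC. The lowest colon library had 26 counts for Egr2, 14 for Egr3, 105 for Nr4a2 and 60 for Nr4a3. The 3 libraries per group limit what a genotype difference can show.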
